A study of Mus musculus with 8 samples.

Results

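The genes described here are 10 serine protease genes of the mouse testis, Prss21, Prss37, Prss41, Prss44, Prss50, Prss51, Prss52, Prss54, Prss55 and Tmprss12. They were chosen by name, from what is known of their expression in male germ cells, with earlier results of these data known. Each is a row of the deposited table of 17127 genes. The table holds RNA-seq of whole adult testis from wild-type mice (labelled WT) and from mice homozygous for a mutation of Iqch (labelled Iqch-/-), an IQ motif gene expressed in the testis. The mutation is a frameshift made with CRISPR-Cas9 in exon 19 of embryos of a C57BL/6 and CBA cross, and it is present in every cell of the animal. The study kept a pair of such lines and names the line Iqch mu7 for its RNA-seq coverage of Iqch, while the labels give no line for each library. All mice were 4-month-old males, with 1 library per mouse, and the libraries analysed were wild type 1 to 4 and mutants 1, 2 and 4. The authors excluded 1 mutant library that stood apart from the rest, and no values of mutant 3 were analysed. The question asked of these libraries was how the transcriptome of the testis changes when Iqch is mutated.

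Serine proteases of the trypsin fold cut proteins with a catalytic triad of histidine, aspartate and serine, which lie apart in the chain and come together in the folded enzyme. Mammalian testes express a large set of them, mostly in meiotic and haploid germ cells, and many are held on the membrane of the sperm head by a lipid anchor or a transmembrane segment. Several are needed before sperm can enter the oviduct through the uterotubal junction, a step that depends on the sperm surface protein ADAM3. Some members have lost part of the triad and are called pseudoproteases.

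The stretch of coding sequence around the catalytic serine shows which of the 10 genes keep it, and it is given below for each gene with 5 codons on either side. The capitals mark the codon that aligned with the catalytic serine of Prss21, codon 248 of its coding sequence. Sequences were read from GRCm39 along the canonical transcript of GENCODE, 5′ to 3′ on the coding strand.
Prss21: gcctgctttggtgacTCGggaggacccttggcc
Prss41: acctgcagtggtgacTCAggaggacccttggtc
Prss44: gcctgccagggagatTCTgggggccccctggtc
Prss51: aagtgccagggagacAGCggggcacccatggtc
Prss52: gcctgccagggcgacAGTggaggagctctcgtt
Prss55: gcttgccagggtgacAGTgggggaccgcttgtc
Tmprss12: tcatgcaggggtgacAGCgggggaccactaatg
Prss37: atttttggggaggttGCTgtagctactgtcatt
Prss50: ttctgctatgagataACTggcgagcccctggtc
Prss54: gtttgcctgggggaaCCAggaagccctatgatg

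In 7 of the 10 genes the codon was one for serine, either of the TCN kind (Prss21, Prss41 and Prss44) or AGC or AGT (Prss51, Prss52, Prss55 and Tmprss12). It was an alanine codon in Prss37, a threonine codon in Prss50 and a proline codon in Prss54. The histidine and the aspartate of the triad were kept in every gene but Prss54, which had serine (codon 73) and asparagine (codon 119) in their places. The encoded proteins ran from 237 residues (Prss37) to 439 residues (Prss50). The closest pair was Prss21 and Prss41, identical at 51.2% of 320 aligned residues, followed by Prss52 and Prss55 at 41.1% of 292. The longest exact run that any member's canonical transcript shared with that of another Prss, Tmprss or Acr gene of the table was 25 bases (Prss21 with Prss41). On the opposite strand, exons of Prss41 overlap those of Prss32 by 59 bases, and exons of Prss52 overlap those of the noncoding Gm17116 by 75. Neither Prss32 nor Gm17116 is in the table, and whether reads of these stretches were counted apart was not tested.

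The mutated gene itself was checked first. Iqch stood at 216.6, 205.9, 216.2 and 192.6 CPM in wild types 1 to 4, and at 67.8, 64.8 and 69.2 CPM in mutants 1, 2 and 4. CPM (counts per 1000000) scales a gene's reads to the total of its library. Every mutant library was therefore below every wild-type library, with a log2 fold change of -1.63 (SE 0.05, FDR 1.92e-10 in limma). The FDR is the limma p-value adjusted over all 17126 genes tested, and a gene was called when it was below 0.01. Libraries held 32064384 to 37551057 reads on the genes of the table, so that 1 read was worth 0.0266 to 0.0312 CPM. Across all genes, libraries of the same genotype correlated at 0.992 to 0.995 and those of different genotypes at 0.943 to 0.955 (Pearson's r of log2 values, across genes, which are not independent replicates).

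In wild-type testes the 10 genes covered a wide range. Per kilobase of canonical transcript, the only scale on which levels of different genes are compared here, the mean level was 150.0 CPM per kb for Prss37 (135.0 to 177.0), 135.0 for Prss55 (117.0 to 152.0), 98.0 for Prss54 (93.8 to 105.0) and 82.2 for Prss52 (66.3 to 100). It was 61.4 for Prss21 (59.3 to 64.9) and 40.5 for Prss51 (34.7 to 47.0). The remaining 4 were much lower, at 17.1 CPM per kb for Tmprss12 (16.6 to 17.4), 15.9 for Prss50 (14.8 to 17.9), 13.4 for Prss44 (12.5 to 14.2) and 5.40 for Prss41 (4.89 to 6.17). The ranges of neighbours in this order overlapped for Prss37 and Prss55, for Prss54 and Prss52, and for Tmprss12 and Prss50. They did not overlap for the other neighbours. The order rests on the canonical length, and all annotated exons of a gene together can be longer (2238 against 1101 bases for Prss21, 1359 against 1042 for Prss51). It was not taken on that longer length. On the CPM scale, which is not corrected for length, Prss41 stood at percentile 26.7 of the genes tested and Prss37 at percentile 91.7. The spread between wild-type mice also differed between genes, from a coefficient of variation of 1.92% for Tmprss12 to 18.4% for Prss52.

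Of the 10 serine proteases, 7 were lower in mutant testes (Prss21, Prss37, Prss51, Prss52, Prss54, Prss55 and Tmprss12), at 75% to 85.9% of the wild-type mean. None was called higher by limma, and 3 did not pass the test: Prss44 and Prss50, both near the wild-type level, and Prss41, which stood higher in every mutant. At an FDR below 0.05 the counts were 7 lower and 1 higher, against 19.8% and 43.0% of all genes. Over all genes tested, 14.2% were called lower and 36.3% higher at an FDR below 0.01, beside 7 of 10 members called lower. The members were chosen with earlier results of these data known, so setting these shares side by side is a description and no test. The median log2 fold change was -0.25 over the members and 0.12 over all genes. Every mutant library was below every wild-type library for 6 members, against 19.5% of all genes, and above for 1 member, against 42.8% of all genes. In whole testis, fewer cells of a type and less RNA per cell cannot be told apart.

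The CPM values carry no correction for composition, and the median gene was 0.12 higher in mutants on the log2 scale. After dividing by median-of-ratios size factors the calls over all genes moved from 6212 higher and 2428 lower to 4627 higher and 4294 lower (27.0% and 25.1%). The same counts were found for the members, 7 lower and 0 higher, with a median of -0.38 against -0.01 for all genes. Relative to the median gene, the 7 called members lay 0.34 to 0.53 below it on the log2 scale, Prss44 and Prss50 lay within 0.03 of it, and Prss41 lay 0.25 above it. The call was less steady over animals than over scaling. It covered 3 members without wild type 2 and also without mutant 4 (11.5% of all genes in either case), and 4 members without mutant 1 (12.1% of all genes), while Prss21, Prss51 and Prss55 were called with any library left out.

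**Figure D1:**
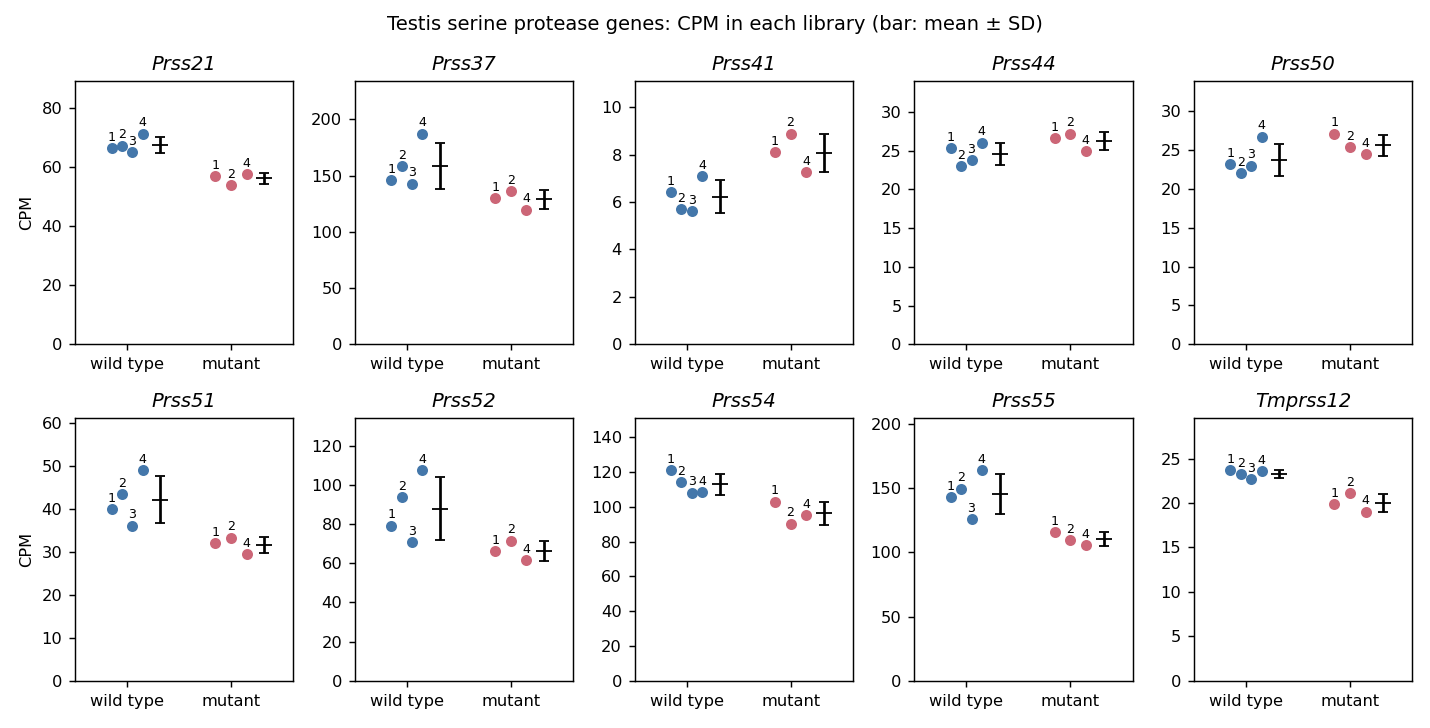
CPM of the 10 serine protease genes in each library, with a panel per gene and a vertical axis that starts at 0. Points are single libraries with their replicate number (blue, wild type, n = 4; red, mutant, n = 3) and the bars beside them are the mean ± SD. The mutant points lie under all wild-type points for Prss21, Prss37, Prss51, Prss54, Prss55 and Tmprss12, and above them for Prss41.

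Prss55 encodes a protease that is lipid-anchored on sperm and is needed for ADAM3 to mature and for sperm to pass the uterotubal junction. It stood at 142.9, 149.5, 125.9 and 163.6 CPM in wild types 1 to 4 and at 115.6, 109.7 and 105.4 CPM in mutants 1, 2 and 4. The highest mutant was below the lowest wild type. The mean went from 145.5 ± 15.6 CPM (SD, n = 4) to 110.3 ± 5.12 (SD, n = 3), a log2 fold change of -0.39 (SE 0.07, FDR 0.000447 in limma). Leaving out single libraries moved it no further than -0.46 and -0.34.

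Prss51 lies beside Prss55 and is transcribed the other way. Its CPM were 40.0, 43.4, 36.1 and 49.0 in wild types 1 to 4 and 32.0, 33.4 and 29.5 in mutants 1, 2 and 4, with no overlap between the genotypes. The log2 fold change, -0.41 (SE 0.09, FDR 0.00160 in limma), was the furthest from 0 among the 10 genes, although the standard errors of Prss51, Prss55 and Prss52 cover one another's values.

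Prss52 is the third gene of that chromosomal run. It read 79.2, 93.8, 70.8 and 107.4 CPM in wild types 1 to 4, the highest coefficient of variation of any member (18.4%), and 66.0, 71.6 and 61.6 CPM in mutants 1, 2 and 4. Mutant 2 was above wild type 3, so the genotypes overlapped. The log2 fold change was -0.39 (SE 0.11, FDR 0.00928 in limma), just inside the threshold. Any of 5 libraries, when left out, took the FDR past 0.01, to 0.0287 without wild type 2, 0.0157 without wild type 4, 0.0270 without mutant 1, 0.0117 without mutant 2 and 0.0393 without mutant 4.

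Prss37, a pseudoprotease that acts with the chaperone PDILT in the maturation of ADAM3, was the most abundant member. Its CPM were 146.0, 158.1, 142.8 and 187.2 in wild types 1 to 4 and 130.2, 136.3 and 119.6 in mutants 1, 2 and 4. All mutants were below all wild types, and wild type 4 stood well above the other wild types. Its log2 fold change was -0.29 (SE 0.08, FDR 0.00717 in limma). The FDR was 0.0175 without wild type 2, 0.0180 without mutant 1 and 0.0371 without mutant 4.

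Prss21 encodes testisin, a lipid-anchored protease of spermatids and sperm. It varied little between mice, with 66.5, 67.4, 65.2 and 71.4 CPM in wild types 1 to 4 and 56.9, 54.1 and 57.7 CPM in mutants 1, 2 and 4. No mutant reached the lowest wild type. The mean went from 67.6 ± 2.68 CPM (SD, n = 4) to 56.2 ± 1.89 (SD, n = 3), a log2 fold change of -0.27 (SE 0.05, FDR 0.000521 in limma) that stayed between -0.28 and -0.24 with any library left out.

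Prss54, the pseudoprotease that lacks all 3 residues of the triad and is a protein of the acrosome, the secretory vesicle of the sperm head, stood at 120.9, 114.1, 108.1 and 108.4 CPM in wild types 1 to 4. It stood at 103.0, 90.3 and 95.2 CPM in mutants 1, 2 and 4, each below every wild type. The difference was -0.23 on the log2 scale (SE 0.06, FDR 0.00317 in limma). Leaving out wild type 1 (FDR 0.0104), wild type 2 (0.0101), mutant 2 (0.0201) or mutant 4 (0.0134) took it past the threshold.

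Tmprss12 encodes a transmembrane protease that sperm also need for ADAM3 and for the uterotubal junction. Its CPM were 23.7, 23.3, 22.7 and 23.6 in wild types 1 to 4 and 19.9, 21.1 and 19.0 in mutants 1, 2 and 4. The 4 wild types were almost equal and every mutant was below them. The log2 fold change was -0.22 (SE 0.06, FDR 0.00839 in limma). Although the genotypes did not overlap, the FDR was above 0.01 with any library but mutant 2 left out. It was 0.0214, 0.0206, 0.0116 and 0.0163 without wild types 1 to 4, 0.0244 without mutant 1 and 0.0475 without mutant 4.

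Prss44 and Prss50 lie in the same chromosomal run and did not pass the test. Prss44, known as Tessp4, had 25.3, 23.0, 23.8 and 26 CPM in wild types 1 to 4 and 26.7, 27.2 and 24.9 CPM in mutants 1, 2 and 4. Prss50, a cancer and testis antigen with threonine in place of the catalytic serine, had 23.2, 22.1, 23.0 and 26.7 CPM in wild types and 27.1, 25.4 and 24.5 CPM in mutants. The genotypes overlapped for both genes. The log2 fold change was 0.10 for Prss44 (SE 0.07, FDR 0.214 in limma) and 0.11 for Prss50 (SE 0.08, FDR 0.203), and its sign turned after size factors, to -0.04 and -0.02.

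Prss41, known as Tessp1 and also lipid-anchored, was the least abundant member and the 1 that stood above wild type in every mutant. It read 6.43, 5.71, 5.63 and 7.11 CPM in wild types 1 to 4 and 8.10, 8.89 and 7.28 CPM in mutants 1, 2 and 4, so that mutant 4 and wild type 4 were close. Its log2 fold change was 0.38 (SE 0.11, FDR 0.0122 in limma), short of the threshold and within one of 0.05, by which 43.0% of all genes were higher. Without wild type 4 it was 0.44 (FDR 0.00538), which passes, as 35.7% of all genes then did upward, and after size factors it was 0.24 (FDR 0.0795).

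**Figure D2:**
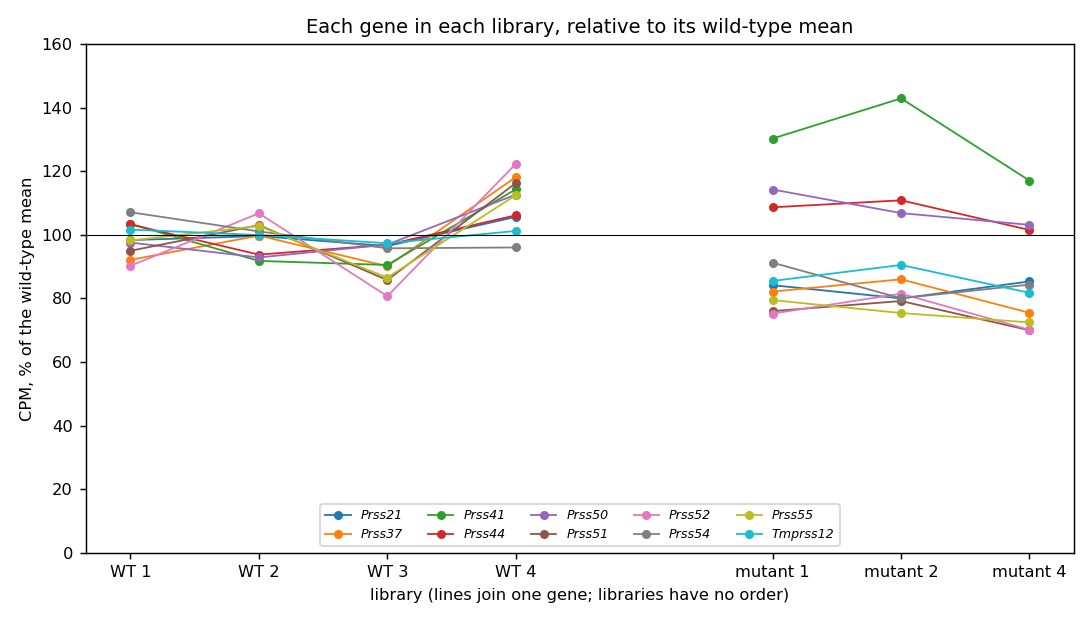
CPM of each member in each of the 7 libraries, as a percentage of that gene's wild-type mean (horizontal line), with lines joining the values of 1 gene within a genotype. The 7 called genes lie between 70.0% and 91.2% in the mutants, Prss44 and Prss50 between 102.0% and 114.0%, and Prss41 between 117.0% and 143.0%. In wild type, Prss52 ranges from 80.7% to 122.0%.

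The summed level of the 10 genes was 674.2, 700.3, 624.1 and 770.6 CPM in wild types 1 to 4 and 585.7, 578.0 and 544.8 CPM in mutants 1, 2 and 4. In the wild types the same libraries tended to be high or low together. The order wild type 3, 1, 2, 4 from low to high was shared by Prss21, Prss37, Prss51, Prss52 and Prss55, and was found in 6.93% of all genes tested. This order was seen in the values and not looked for in advance.

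Of the 10 genes, 7 lie in 3 runs along the genome, and they were read against their neighbours. Coordinates are those of GRCm39 with GENCODE genes. On chromosome 14, Prss55 (64312884 to 64327611, minus strand), Prss51 (64322960 to 64335130, plus strand) and Prss52 (64341735 to 64351216, plus strand) follow one another, with the long noncoding RNA 4930471C04Rik (64331718 to 64341726, minus strand) between the last pair. Starts lie back to back at 2 places in this run, that of Prss55 (64322900 in its canonical transcript) 60 bases from the outermost start of Prss51, and that of 4930471C04Rik 9 bases from that of Prss52. The canonical transcript of Prss51 starts further on, at 64331134. The 59 bases between the starts of Prss55 and Prss51, on the plus strand, are shown, chosen after both genes were seen to be lower. The only TATAAA they hold is in capitals, and whether it bears on the level of either gene was not tested.
chr14:64322901-64322959: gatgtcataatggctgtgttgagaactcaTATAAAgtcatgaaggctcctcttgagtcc
They are in no annotated exon, and in an intron of a longer transcript of Prss55 that has no annotated coding sequence. The TATAAA lies at 64322930 to 64322935, 30 bases before the outermost start of Prss51 and 35 bases before the canonical start of Prss55.
Of 13785 promoters of protein-coding genes in the table, taken as 250 bases before to 50 after the canonical start, 8.26% hold TATAAA on either strand, and of the 10 members Prss55 does, on the strand opposite to its gene. The cyclic AMP response element TGACGTCA, bound by factors that act in spermatids, is in 3.09% of those promoters and in 0 of the 10. Its part TGACG, which every TGACGTCA also contains, is in 28.0% and in 1 of the 10, Tmprss12, 160 bases before the start. A match of letters is a description and no evidence of a bound factor.

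The 3 proteases of the chromosome 14 run were all lower in mutants, with log2 fold changes of -0.41 to -0.39. The ratio of Prss55 to Prss51, taken within each library and so free of any scaling between libraries, was 3.57, 3.44, 3.48 and 3.34 in wild types 1 to 4 and 3.61, 3.29 and 3.57 in mutants 1, 2 and 4. The mean was 3.46 ± 0.0959 (SD, n = 4) in wild type and 3.49 ± 0.177 (SD, n = 3) in mutants, and the genotypes did not differ beyond this spread (exact permutation p = 0.80, two-sided). The noncoding 4930471C04Rik was lower as well, at 10.4, 12.8, 10.3 and 12.3 CPM in wild types 1 to 4 and 7.15, 8.08 and 6.73 CPM in mutants 1, 2 and 4, with a log2 fold change of -0.63 (SE 0.11, FDR 0.000227 in limma). The ratio of Prss51 to this RNA was 3.69 ± 0.284 in wild type and 4.33 ± 0.179 in mutants, and the ratio of the RNA to Prss52 was 0.132 ± 0.0129 and 0.110 ± 0.00240 (exact permutation p = 0.0571 for each, adjusted p = 0.0734 over 9 pairs of neighbours), and neither ratio overlapped between genotypes. Exons of this RNA overlap 14.2% of the exonic length of Prss51 on the other strand. The strand setting of the counting is not given in the sources used here, so their reads may not be separate.

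On chromosome 9 the run of Prss42, Prss44, Prss43, Prss45, Prss46 and Prss50, all on the plus strand from 110627234 to 110693697, held genes that passed the test beside genes that did not. Prss42, Prss43 and Prss45 were lower in mutants. Prss42 (Tessp2) went from 51.8 ± 1.18 CPM (SD, n = 4) to 39.9 ± 1.23 (SD, n = 3), a log2 fold change of -0.37 (FDR 2.94e-05 in limma). Prss43 (Tessp3) went from 35.1 ± 1.80 to 28.2 ± 1.24 CPM (-0.31, FDR 0.000653 in limma). Prss45 went from 57.6 ± 2.38 to 31.6 ± 2.33 CPM (-0.86, FDR 1.32e-07 in limma), while Prss46 was at 77.2 ± 10.8 and 65.0 ± 5.71 CPM (-0.24, FDR 0.0443), not called. Prss46 passed the test after size factors (-0.38, FDR 0.00460) and without wild type 4 (-0.33, FDR 0.00176). Prss44 and Prss50 sit between and beside these genes with values at or above wild type.

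Ratios of adjacent genes within a library set this out without any scaling. The ratio of Prss42 to Prss44 was 2.0, 2.21, 2.2 and 2.04 in wild types 1 to 4 and 1.5, 1.51 and 1.55 in mutants 1, 2 and 4. That of Prss44 to Prss43 was 0.738, 0.644, 0.721 and 0.700 in wild types and 0.911, 0.959 and 0.929 in mutants. Neither ratio overlapped between genotypes (exact permutation p = 0.0286 for each, two-sided, the smallest that 4 against 3 allow). The ratio of Prss46 to Prss50 did overlap, at 3.86, 3.56, 3.38 and 2.36 in wild types and 2.41, 2.33 and 2.88 in mutants (exact permutation p = 0.143).

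On chromosome 17, Prss41 (24055759 to 24063170, minus strand) and Prss21 (24087030 to 24092095, plus strand) are neighbours and the closest pair in sequence. Their ratio, Prss41 to Prss21, was 0.0967, 0.0847, 0.0863 and 0.0995 in wild types 1 to 4 and 0.142, 0.164 and 0.126 in mutants 1, 2 and 4, higher in every mutant (exact permutation p = 0.0286, two-sided). Adjusted over the 9 pairs of neighbours in the 3 runs, the 5 ratios with the smallest p had an adjusted p of 0.0515, so none passed 0.05. Tested genes directly beside the runs went both ways. On chromosome 14, 4930578I06Rik was lower (-0.24, FDR 0.00204 in limma) and Msra higher (0.45, FDR 0.00194). On chromosome 17, Elob was not called (-0.14, FDR 0.12) and Kctd5 was higher (0.34, FDR 0.00158). Beside Prss50 on chromosome 9, Tmie was higher (1.27, FDR 1.11e-05). After size factors Msra (FDR 0.0159) and Kctd5 (FDR 0.0229) were not called and Elob was lower (-0.27, FDR 0.00738).

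**Figure D3:**
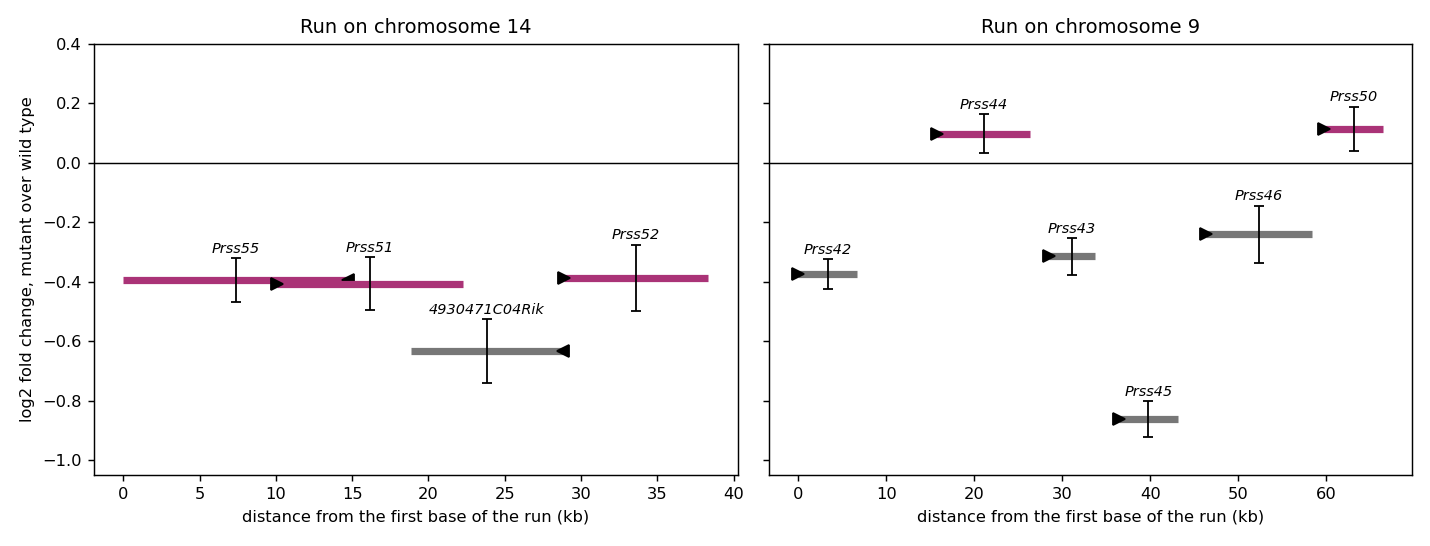
Log2 fold change of mutant over wild type (vertical axis, error bars are the standard error of limma) for the genes of the runs on chromosomes 14 and 9, against the distance in kb from the first base of the run. Bars span each gene, arrowheads mark its start and direction, and the members are in purple. The chromosome 14 members lie together near -0.40, while Prss44 and Prss50 lie above 0 on either side of genes that lie below it.

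The remaining members lie alone. Prss37 occupies bases 40491754 to 40496476 of chromosome 6 (minus strand), inside the locus of Ssbp1 on the other strand, with 0 exonic bases shared. Prss54 occupies bases 96285697 to 96302968 of chromosome 8 (minus strand), and Tmprss12 bases 100178696 to 100190947 of chromosome 15 (plus strand).

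The rest of the family in the table held 20 genes, those whose symbol starts with Prss or Tmprss and Acr, which encodes the acrosomal protease acrosin. Of these, 10 were lower, 4 higher and 6 not called, with a median log2 fold change of -0.23, close to the -0.25 of the members. Prss59 was the most abundant, with a mean of 432.3 ± 17.7 CPM over wild types (SD, n = 4) against 349.9 ± 3.63 over mutants (SD, n = 3, log2 fold change -0.30, FDR 3.12e-05 in limma). Acr stood at 175.6 ± 3.87 and 150.7 ± 8.20 CPM (-0.22, FDR 0.000958). Prss39 stood at 336.9 ± 15.5 and 301.9 ± 31.6 CPM (-0.16, FDR 0.0363) and was not called, but it passed after size factors (-0.30, FDR 0.00195) and without mutant 1 (-0.24, FDR 0.00164). The changes furthest from 0 were those of Prss47, from 28.1 ± 1.07 to 12.7 ± 0.977 CPM (-1.14, FDR 4.64e-08), and Prss35, from 17.7 ± 2.44 to 47.9 ± 2.79 CPM (1.44, FDR 7.32e-08). The fold changes of the members ran from -0.41 to 0.38 and those of the other 20 genes from -1.14 to 1.44, a difference in span that was not tested. One of the 20, Prss23os, is antisense to Prss23.

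**Figure D4:**
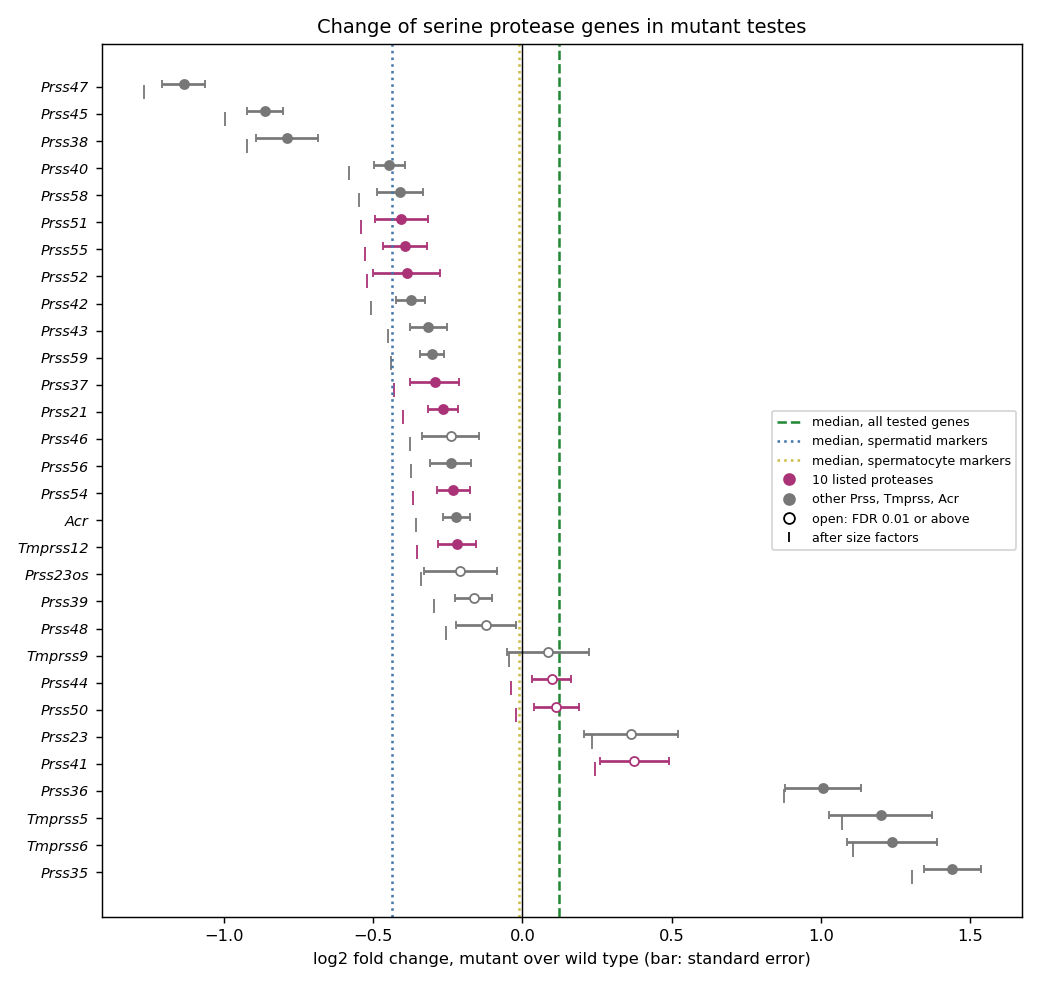
Log2 fold change of mutant over wild type for the 10 members (purple) and the other Prss, Tmprss and Acr genes (grey), sorted, with the standard error of limma as bars. Filled points passed an FDR of 0.01, ticks give the value after size factors, and vertical lines give the medians of all genes tested (0.12), spermatid markers (-0.44) and spermatocyte markers (-0.01). Most genes of the family lie left of 0, and the members called lower lie from -0.41 to -0.22.

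Genes of the ADAM3 route, which Prss37, Prss55 and Tmprss12 belong to, were lower as well. Of 17 genes listed for this route, 12 were lower, 2 higher and 3 not called, with a median of -0.25. Adam3 itself went from 1210 ± 28.6 CPM (SD, n = 4) to 1017 ± 3.45 (SD, n = 3), a log2 fold change of -0.25 (FDR 4.38e-05 in limma). Ace, the angiotensin-converting enzyme of the germ line, went from 702.7 ± 41.2 to 575.7 ± 18.5 CPM (-0.29, FDR 0.000191), and Adam1a from 149.3 ± 6.87 to 111.9 ± 6.25 CPM (-0.42, FDR 1.64e-05). The chaperone calmegin, Clgn, was at 737.2 ± 37.2 and 677.9 ± 16.3 CPM (-0.12, FDR 0.0303), not called, and it passed after size factors (-0.26, FDR 0.000384) and without wild type 4 (-0.15, FDR 0.00559). Rnase10, a low gene here, was higher, at 1.99 ± 0.181 and 3.85 ± 0.786 CPM (0.90, FDR 0.000467).

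Of 7 serine protease inhibitor genes, 2 were lower, 3 higher and 2 not called. Spink2, the inhibitor of acrosomal proteases, went from 324.5 ± 9.62 CPM (SD, n = 4) to 268.7 ± 10.9 (SD, n = 3), a log2 fold change of -0.27 (FDR 0.000101 in limma). Serpina5, an inhibitor of coagulation and other proteases, went the other way, from 63.2 ± 2.85 to 209.2 ± 9.36 CPM (1.73, FDR 1.38e-10). Spint2, an inhibitor of membrane proteases, went from 92.6 ± 5.13 to 114.9 ± 3.44 CPM (0.31, FDR 0.000153) and was not called after size factors (0.18, FDR 0.0102). The called changes furthest from 0 were those of Spink8, from 5.05 ± 1.03 to 2.29 ± 0.176 CPM (-1.09, FDR 8.24e-05), downward, and of Spink4, from 1.54 ± 0.183 to 6.07 ± 0.927 CPM (1.90, FDR 4.52e-07), upward.

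Markers of the cells of the testis moved with genotype beside the members. Of 12 spermatid markers, 10 were lower, 0 higher and 2 not called, with a median of -0.44. At an FDR below 0.05, 11 were lower and 0 higher, against 19.8% and 43.0% of all genes. The summed level of these markers was 22430 to 23710 CPM in wild type and 14440 to 16540 CPM in mutants. Of 8 spermatocyte markers, 1 was higher and 7 were not called, with a median of -0.01. Their sum was 687.3 to 793.4 CPM in wild type and 657.8 to 746.7 CPM in mutants. The 1 call was lost without wild type 1, mutant 2 or mutant 4, and 2 of the 8 were lower without wild type 4 or after size factors. Of 7 spermatogonia markers found, 4 were higher, with a median of 0.31. That count was 1 without wild type 2 and without mutant 2, 2 without wild type 3 and without mutant 4, and 1 after size factors.

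Somatic markers were higher. All 6 Sertoli cell markers found (median 0.78), 5 of 6 Leydig cell markers (median 1.25) and all 5 macrophage markers (median 1.80) were called higher, and 1 of 3 myoid cell markers found, or 2 of them without mutant 4. The Sertoli cell count was 4 after size factors and 4 to 6 with single libraries left out. The Leydig cell and macrophage counts stayed at 5 in these settings. The summed level was 963.1 to 1045 CPM against 2031 to 2160 CPM for Sertoli cells, 996.6 to 1202 against 4214 to 4393 for Leydig cells, and 24.3 to 28.5 against 88.5 to 101.3 for macrophages, wild type first. None of the 5 epididymis markers is in the table. The part of these shifts in the values of the members was not tested.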

How the data were processed

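RNA was from whole testes of 4-month-old mice, sequenced as paired ends after TruSeq library preparation. Per the labels and the study's methods, the authors used Trimmomatic for trimming, Subread for mapping to GRCm39 and featureCounts for counting, then removed genes that did not reach 75 reads in 2 samples of either group. The authors deposited CPM without a between-sample factor: each library sums to 1000000 over 17127 genes. The annotation release is not given in the sources used here. The authors' own calls used edgeR and DESeq2, which were not used here.

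Groups came from the sample titles. All values of a library were whole multiples (within 0.01) of 1 step, taken as 1 read, which gave its depth. Intervals from depth would cover counting error only. The 17126 genes that reached 2.2 CPM in 2 samples of either group were tested with limma 3.58.1 in R 4.3.3 (trend) on log2(CPM + 0.1), with Benjamini-Hochberg FDR over all of them, and called below 0.01. Fold changes are on this log2(CPM + 0.1) scale. All 10 members passed the minimum. The fit was tested on simulated data (16511 genes, 200 of them changed). It called 99 of 100 genes changed by 0.5 (log2), 100 of 100 changed by 1, and 0 unchanged genes. The simulated spread between libraries was below the wild-type coefficients of variation of Prss52 (18.4%), Prss51 (12.9%), Prss37 (12.8%), Prss41 (11.2%), Prss55 (10.7%) and Prss50 (8.67%). The members also changed by less than 0.5, so these rates do not describe them. P-values measure the spread between the mice sampled. Replicate numbers did not pair the libraries, as checked on their deviations.

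The members and lists were chosen with earlier results of these data known. From the family, ADAM3 route and inhibitor lists, the genes named are the 3 highest in wild-type CPM and the called gene with the largest change in each direction. Neighbours of the members within or directly beside a chromosomal run are named by position. The 9 ratios of adjacent genes were chosen after seeing the data and tested by exact permutation, counting absolute differences. Coordinates and sequences were taken from GENCODE M39 (GRCm39), which holds 17045 of the genes (99.5%). Proteins were translated and aligned with Biopython 1.88 and MAFFT 7.526. Alternatives were other pseudocounts and minimums, size factors, TMM factors, limma-voom, an FDR of 0.05, a replicate block, and each library left out.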

Additional observations from a re-analysis of the deposited data

Results flagged for a closer look

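Of 36 genes checked for a wild-type library far from the other 3, 1 stood out. Acr, which encodes acrosin, read 181.3 CPM in wild type 1 and 173.1 to 174.1 CPM in the other wild types, and the gap was 0.875 of the whole range above the 95% limit of Dixon's test for 4 samples. Chance alone flags about 1 in 20 groups. The mutants were below all 4 wild types, and Acr stayed called lower with any library left out (log2 fold change -0.25 to -0.18).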

How the results depend on the processing

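Over 160 recomputed log2 fold changes of the members, 134 kept their direction and side of the threshold, 20 lost the call, 2 gained it and 4 changed sign. Leaving out single libraries, the members called lower numbered 3 to 6 and those called higher 0 to 1. The log2 fold changes then ranged from -0.28 to -0.24 for Prss21, -0.34 to -0.21 for Prss37, 0.31 to 0.45 for Prss41, 0.07 to 0.14 for Prss44, 0.07 to 0.17 for Prss50, -0.48 to -0.33 for Prss51, -0.48 to -0.28 for Prss52, -0.28 to -0.19 for Prss54, -0.46 to -0.34 for Prss55 and -0.26 to -0.18 for Tmprss12. Fewer libraries were fitted in each case. With size factors and with TMM factors, Prss44 turned to -0.0366 and -0.0233 and Prss50 to -0.0204 and -0.0070, which follows from the shift of all genes under those factors. At an FDR of 0.05 the members called higher numbered 1, Prss41 (0.38), and 43.0% of all genes were called higher. Under limma-voom, added after seeing the data, Prss52 was no longer called (-0.39, FDR 0.0106).

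The replicate numbers did not pair the libraries: deviations of same-numbered libraries correlated at 0.026, 0.009 and -0.098. With the number as a replicate block, Tmprss12 was no longer called (-0.23, FDR 0.0249) and no other member changed its call. Limma-voom was run on reads recovered from the CPM, which could not be checked independently of the CPM. Tests with edgeR and DESeq2 on these reads were not run. Depth did not limit the members, the lowest of which, Prss41, stood far above the 0.0799 to 0.0936 CPM of 3 reads.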

Other observations

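Over the 7 libraries, the protein-coding genes whose log2 CPM followed that of Prss51 most closely were Mmachc (Pearson's r = 0.997), Kif19a (0.992) and Chrne (0.989), out of 13783 genes searched. Those closest to Prss37 were Gm4984 (0.994), Ccin (0.991), which encodes calicin of the sperm head cytoskeleton, and Wbp2nl (0.989), which encodes a protein of the sperm head. All 6 were lower in mutants, with log2 fold changes of -0.34 to -0.28, and repeated the wild-type order of wild type 3 or 1 low and wild type 4 high. They were picked for following Prss51 or Prss37 over the same 7 libraries, so this direction and order come with the choice. The correlations are descriptions over libraries that also share the difference between genotypes.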
